A study of Mus musculus with 35 samples.

Results

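The iron and heme handling genes described here were Hmox1, Spic, Slc40a1, Tfrc, Slc11a1 and Hfe, chosen by their symbols. They are 6 of the 18193 genes named on the array, and 14 of its 45101 probe sets carry their symbols, of which 3 are control probe sets for Tfrc. Expression was measured on 35 Affymetrix arrays, each hybridised with RNA from cells sorted by flow cytometry from male C57BL/6J mice, 8 weeks old, with no treatment named in the labels. Every level below is the deposited log2 value of the probe set with the highest mean for its gene. Levels of different genes come from different probes and are not set against each other.

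A set of 20 arrays covered bone marrow progenitors and mature cells. SatM (atypical monocytes that the labels link to fibrosis) and inflammatory monocytes had 2 arrays each. SMP, the labelled progenitor of SatM, and cMoP, the common monocyte progenitor, had 4 arrays each, of which 2 each were titled WT. The granulocyte-monocyte progenitor (GMP) and the progenitor shared by monocytes, macrophages and dendritic cells (MDP) had 1 array each, and spleen basophils, eosinophils and neutrophils had 2 each. The other 15 arrays formed a panel by tissue, with 1 array per sort and tissue. It held resident M2-like macrophages (spleen, bone marrow), SatM (spleen, bone marrow, blood, lung), Msr1- Ceacam1- cells (spleen, bone marrow, blood), other Ly6C- monocytes (spleen, blood), Msr1dull Ceacam1dull cells (bone marrow, lung) and a pair of resident lung macrophage sorts, titled MP_BAL and F480 posi_BAL. No label says that arrays of a group came from separate animals. The p-values thus measure the spread between these arrays, which may be technical, and the number of arrays limits their precision. In the panel no sort was repeated within a tissue, so there this spread is between tissues or between sorts, not between replicates. In these bulk samples, fewer cells of a type and less RNA per cell cannot be told apart.

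Macrophages of the spleen and bone marrow engulf old red blood cells and expelled nuclei and recover their iron. Heme oxygenase 1 (Hmox1) opens the heme ring and frees the iron, ferroportin (Slc40a1) carries iron out of the cell, and Slc11a1 (NRAMP1) moves it out of the phagosome. Spi-C (Spic) is a transcription factor that red pulp macrophages need. Most other cells take up iron through the transferrin receptor (Tfrc), and Hfe binds that receptor and takes part in sensing body iron. The repressor Bach1 and the activator Nfe2l2 (NRF2) act on Hmox1 and other genes through the same DNA element.

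In the mouse assembly GRCm38.p6 (RefSeq), Hmox1 lies at chr8:75093618-75100593, Spic at chr10:88675269-88683023 and Slc40a1 at chr1:45908070-45926532. Tfrc lies at chr16:32608896-32632794, Slc11a1 at chr1:74375014-74386057 and Hfe at chr13:23702034-23710854. RefSeq promoter windows, 250 bases before to 50 after a start, were given for Spic, Slc11a1, Hfe and Tfrc. They are shown so that the starts of genes with different patterns can be set side by side. Both strands were searched for the antioxidant response element core that Bach1 and Nfe2l2 bind, TGACNNNGC, and for the core of the PU.1 and Spi-C site, GAGGAA. Capitals mark each match, and the 2 motifs did not overlap in any window. The windows, 5′ to 3′ on the gene's strand, are chr10:88682974-88683273 (minus strand) for Spic, chr1:74374953-74375252 (plus) for Slc11a1, chr13:23710805-23711104 (minus) for Hfe and chr16:32608646-32608945 (plus) for Tfrc.
Spic: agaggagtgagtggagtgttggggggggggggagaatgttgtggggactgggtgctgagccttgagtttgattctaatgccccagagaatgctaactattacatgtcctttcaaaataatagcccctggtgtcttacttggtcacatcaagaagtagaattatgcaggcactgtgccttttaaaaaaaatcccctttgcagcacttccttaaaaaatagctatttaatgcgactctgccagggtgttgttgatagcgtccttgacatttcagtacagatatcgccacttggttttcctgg
Slc11a1: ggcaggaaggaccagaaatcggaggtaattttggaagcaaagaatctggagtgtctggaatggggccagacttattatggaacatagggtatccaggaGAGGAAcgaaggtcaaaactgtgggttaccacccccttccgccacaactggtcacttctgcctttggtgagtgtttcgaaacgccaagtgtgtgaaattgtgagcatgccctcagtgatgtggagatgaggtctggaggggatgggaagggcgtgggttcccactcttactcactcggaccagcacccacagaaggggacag
Hfe: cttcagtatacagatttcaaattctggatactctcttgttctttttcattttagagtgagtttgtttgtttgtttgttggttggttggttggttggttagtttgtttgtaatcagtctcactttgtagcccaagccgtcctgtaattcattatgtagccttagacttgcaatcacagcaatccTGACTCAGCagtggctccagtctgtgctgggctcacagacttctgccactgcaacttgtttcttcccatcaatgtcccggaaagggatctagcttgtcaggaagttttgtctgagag
Tfrc: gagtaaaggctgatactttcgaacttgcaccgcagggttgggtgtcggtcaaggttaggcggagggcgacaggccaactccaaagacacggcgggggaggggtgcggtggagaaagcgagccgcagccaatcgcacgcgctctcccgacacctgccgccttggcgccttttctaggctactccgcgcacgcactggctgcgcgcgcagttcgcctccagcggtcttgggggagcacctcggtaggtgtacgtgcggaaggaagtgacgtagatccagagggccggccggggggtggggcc

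The Hfe window held TGACTCAGC beginning 67 bases before the start. The Slc11a1 window held GAGGAA beginning 152 bases before the start used for that window. This start lies inside the Slc11a1 range given above, and so does the match, so it is not upstream of the first listed base. Among 32851 promoter windows of the same length, 12.4% held TGACNNNGC and 28.3% held GAGGAA. Neither set of letters was in the windows shown for Spic and Tfrc. A match describes letters only, and no binding was measured here.

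The labels were compared with marker genes. All 10 measured genes of the red pulp and marrow macrophage list were above the floor on both M2-like arrays (the floor, 2.30, is the minimum that all arrays share, and a value within 0.05 of it is called at the floor). Their summed level, on the log2 scale, was 16.34 in spleen and 16.79 in bone marrow M2-like macrophages. It was 9.74 to 12.25 in panel SatM outside the lung and 11.48 to 14.84 on the lung arrays. The lung macrophage sorts differed in the 9 measured alveolar macrophage markers. MP_BAL had a sum of 15.57, with 0 at the floor. F480 posi_BAL had 13.88, with 2 at the floor, near SatM of the lung at 13.50. Inflammatory monocytes had 14.24 and 14.29, so this list does not mark alveolar macrophages alone. Classical monocyte sums were 15.17 in MP_BAL and 14.67 in F480 posi_BAL, with marker medians of 7.03 and 11.78. Markers of other cells were also present. The summed neutrophil level was 17.10 in bone marrow SatM of the panel, against 17.28 and 17.37 in neutrophils, and the erythroid sum was 12.45 in bone marrow M2-like macrophages against 7.38 in those of the spleen. All 4 SMP arrays had basophil and mast cell sums of 16.47 to 16.65, against 16.67 and 16.75 in basophils, with 0 of the 7 markers at the floor.

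**Figure D1:**
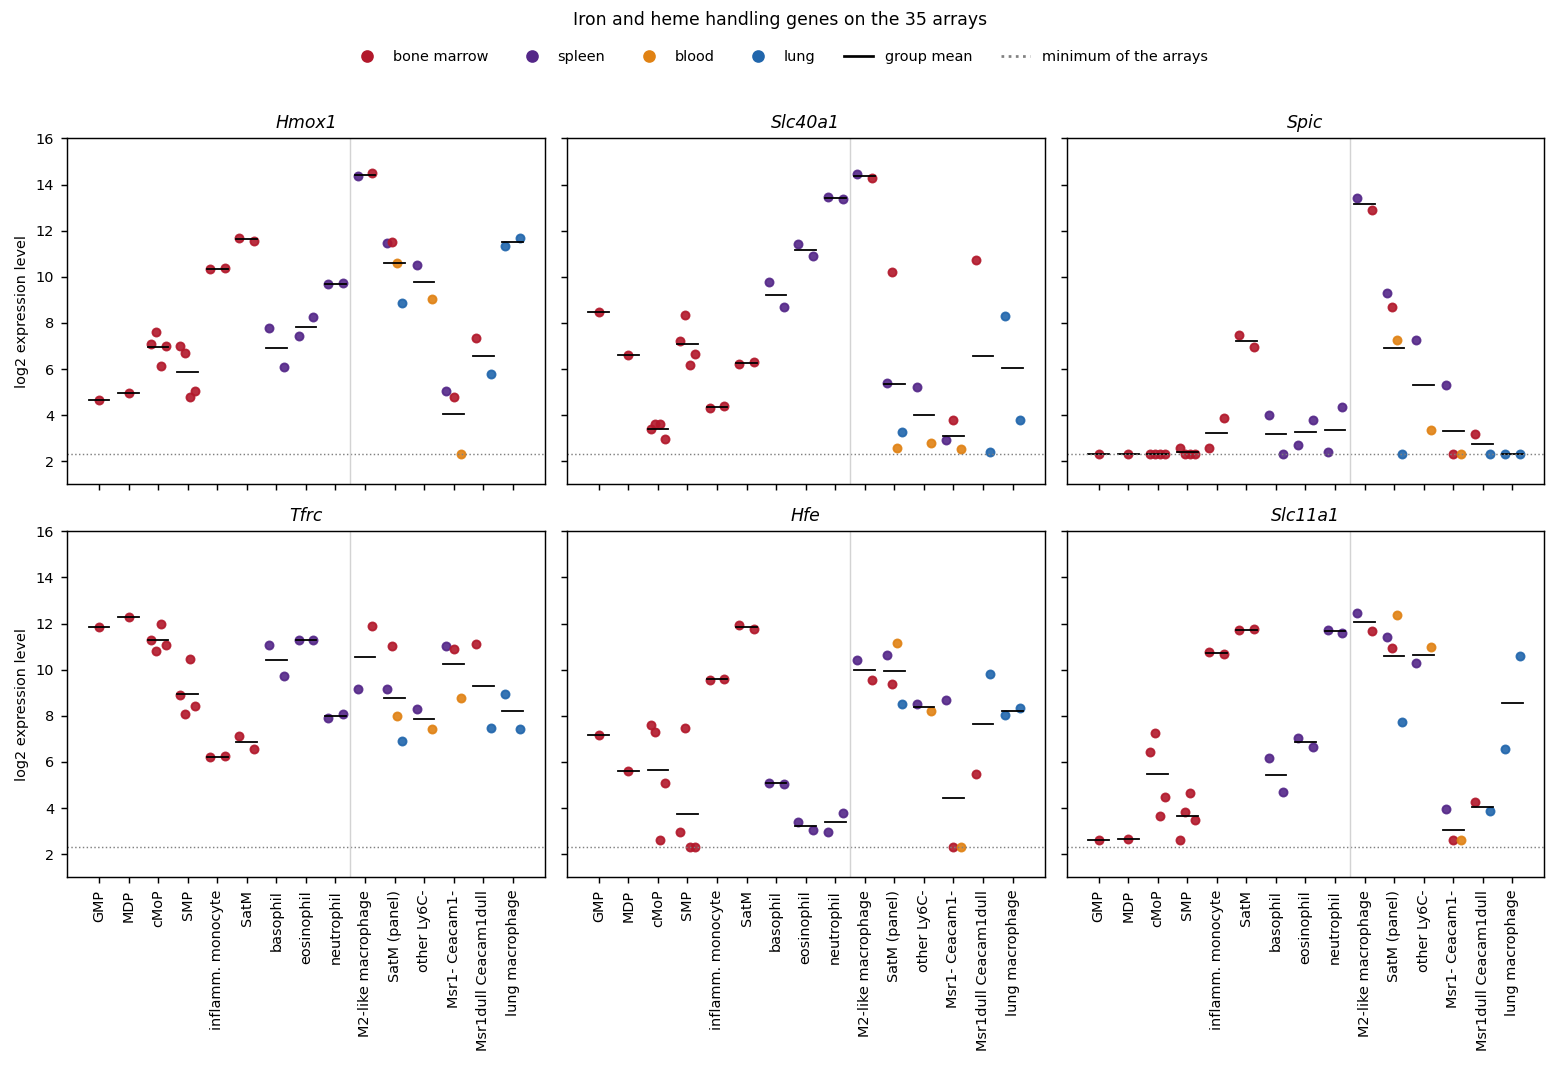
Log2 expression level (vertical axis) of the 6 genes on the 35 arrays, by cell type (horizontal axis), with 1 point per array coloured by tissue, black lines at group means and a dotted line at the array minimum. The grey line separates the 20-array set (left) from the 15-array tissue panel (right). The 2 M2-like arrays stand above all others for Hmox1, Slc40a1 and Spic, while Tfrc is highest in MDP.

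Hmox1, the enzyme that breaks heme, was at 14.36 in spleen and 14.51 in bone marrow M2-like macrophages. The other 33 arrays lay below both. SatM of the bone marrow followed at 11.69 and 11.56, then the lung macrophages at 11.33 (MP_BAL) and 11.66 (F480 posi_BAL), whose ranges overlapped. In the panel, SatM was at 11.45 in spleen, 11.50 in bone marrow, 10.59 in blood and 8.88 in lung. Inflammatory monocytes read 10.36 on both arrays and neutrophils 9.69 and 9.72, with no overlap between them. GMP (4.65), MDP (4.98) and the Msr1- Ceacam1- cells (5.05 in spleen, 4.78 in bone marrow and at the floor in blood) had the lowest group means, and SMP WT 1 (4.79) and SMP WT 2 (5.04) were as low.

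Spic was at 13.41 in spleen and 12.88 in bone marrow M2-like macrophages. Panel SatM came next, at 9.31 in spleen, 8.69 in bone marrow and 7.27 in blood, with the 20-array SatM at 7.49 and 6.96. SatM of the lung was at the floor (2.31), as were the other 3 lung arrays. Other Ly6C- monocytes were split by tissue, at 7.24 in spleen and 3.38 in blood. Spic was at the floor on 16 of the 35 arrays, including GMP, MDP, all cMoP arrays and 3 of the 4 SMP arrays. Its second probe set, at the floor on 23 arrays, reached 12.87 at most.

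Slc40a1, the iron exporter, was at 14.45 in spleen and 14.29 in bone marrow M2-like macrophages. Spleen granulocytes followed without overlap: neutrophils at 13.47 and 13.36, eosinophils at 11.40 and 10.91, and basophils at 9.78 and 8.67. Among monocytes the level was lower, at 6.24 and 6.32 in SatM and 4.32 and 4.39 in inflammatory monocytes. The bone marrow arrays of the panel differed from this, with SatM at 10.20 and Msr1dull Ceacam1dull cells at 10.71, whereas SatM read 5.42 in spleen, 2.57 in blood and 3.26 in lung. Those same marrow arrays had neutrophil marker sums of 17.10 and 16.75, against 15.41 in SatM of the spleen and 9.81 in SatM of the blood. Other Ly6C- monocytes of the spleen had a neutrophil sum of 15.70 with Slc40a1 at 5.21. The same 2 marrow arrays had eosinophil sums of 12.09 and 14.18. Their 3′ minus 5′ log2 differences of the Actb control probe sets, a measure of RNA quality, were 0.93 and 4.35. The part of neutrophil or eosinophil transcripts or of RNA quality in the Slc40a1 level was not tested. The lung macrophages disagreed with each other, at 8.31 (MP_BAL) and 3.79 (F480 posi_BAL).

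Slc11a1, the phagosomal metal transporter, was at 12.48 in spleen and 11.69 in bone marrow M2-like macrophages, a range that overlapped SatM at 11.74 and 11.75. Panel SatM read 12.36 in blood, 11.42 in spleen and 10.95 in bone marrow. Neutrophils (11.72 and 11.60), inflammatory monocytes (10.76 and 10.67) and other Ly6C- monocytes (10.31 in spleen and 10.97 in blood) were also high. It was 2.60 in GMP and 2.66 in MDP, and 2.60 to 3.97 in Msr1- Ceacam1- cells. The lung arrays ranged widely, at 10.57 (F480 posi_BAL), 7.73 (SatM), 6.55 (MP_BAL) and 3.89 (Msr1dull Ceacam1dull).

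Hfe had its top values in SatM of the 20-array set, at 11.94 and 11.77, and in panel SatM of the blood, at 11.16. M2-like macrophages read 10.44 in spleen and 9.56 in bone marrow, and inflammatory monocytes 9.57 and 9.61. These ranges overlapped. Granulocytes were low: basophils at 5.10 and 5.05, eosinophils at 3.38 and 3.06, and neutrophils at 2.98 and 3.78. The 4 SMP arrays were at 2.97, 7.49, 2.30 and 2.30, so SMP 2 lay apart from the others. On a second Hfe probe set SMP 2 read 2.49, the same as SMP 1.

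Tfrc, the transferrin receptor, was ordered differently. MDP (12.27) and GMP (11.86) were above the mean of every other cell type, and cMoP was at 11.28 ± 0.50 (SD, n = 4). Eosinophils read 11.30 on both arrays, within the cMoP range. SatM (7.14 and 6.56) and inflammatory monocytes (6.21 and 6.24) had the lowest means. In the panel the tissue went with the level: the 4 bone marrow arrays lay between 10.88 and 11.88, the 4 spleen arrays between 8.28 and 11.05, the 3 blood arrays between 7.41 and 8.76, and the 4 lung arrays between 6.91 and 8.94. M2-like macrophages followed this split, at 11.88 in bone marrow and 9.18 in spleen. The summed level of 11 cell cycle genes was 13.72 in bone marrow and 9.79 in spleen M2-like macrophages, and 11.22, 14.36, 8.99 and 12.63 in SatM of the spleen, bone marrow, blood and lung. The 4 lung arrays had cell cycle sums of 12.54 to 13.47 with low Tfrc. Erythroid precursors, which need much iron, have Tfrc as well, and the erythroid sums of the 2 M2-like arrays are given above. The erythroid gene Slc4a1 read 11.76 in bone marrow M2-like macrophages and 4.26 in those of the spleen, while the hemoglobin gene Hba-a1 was at the floor on both. The part of either in the Tfrc level was not tested.

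Spleen and bone marrow M2-like macrophages were first compared with the 4 SatM arrays of the panel, in a model with cell type and tissue over all 15 panel arrays. Hmox1, Slc40a1 and Spic were higher in M2-like macrophages, and Tfrc, Hfe and Slc11a1 did not pass the test. Calls here and below required limma's p, adjusted by Benjamini-Hochberg over every gene tested, to be under 0.05 and the log2 difference to be at least 1. This called 3 of the 6 genes, all higher, where 5.39% of the 11734 genes tested were called higher, 2.92% lower and 8.31% in either direction. The median fitted difference was 1.92 over the 6 genes and 0.03 over all genes.

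Hmox1 was higher by 2.84 ± 0.44 (fitted log2 difference ± SE, adjusted p = 0.00849). Within a tissue the difference was 2.90 in spleen and 3.01 in bone marrow. Spic was higher by 4.63 ± 1.07 (adjusted p = 0.0364), with 4.10 in spleen and 4.20 in bone marrow. Slc40a1 was higher by 6.86 ± 1.73 (adjusted p = 0.0492), and here the tissues differed in size, with 9.03 in spleen and 4.09 in bone marrow, where SatM itself was high.

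All 3 calls rest on few arrays. Leaving out the spleen M2-like array gave limma adjusted p = 0.0621 for Hmox1, 0.104 for Spic and 0.361 for Slc40a1, and leaving out the bone marrow one gave 0.0838, 0.276 and 0.118. Spic was also lost without SatM of the spleen (adjusted p = 0.128) or blood (0.0656). Slc40a1 was lost without SatM of the spleen (0.175), bone marrow (0.0707) or blood (0.0941). Spic and Slc40a1 were also lost without a filter on dim genes (adjusted p = 0.0949 and 0.122) and without the tissue term (0.0739 and 0.0611), and all 3 with the compared groups alone (0.0966, 0.0966 and 0.169 for Hmox1, Spic and Slc40a1). The 3 genes stayed higher in M2-like macrophages in each of these fits. When SatM of the bone marrow and lung, which stand apart in Slc40a1 and Spic, were left out together, 2 of the 6 genes were called, and Hmox1 read 2.45 (adjusted p = 0.052).

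For the other 3 genes the intervals were wide. The difference was 0.48 for Tfrc (95% interval -0.96 to 1.92), 0.02 for Hfe (-3.75 to 3.79) and 0.997 for Slc11a1 (-1.67 to 3.66). RNA quality also differed: the 3′ minus 5′ log2 difference of the Actb control probe sets was 1.72 to 2.17 on the M2-like arrays, 0.93 to 1.78 in SatM outside the lung and 0.69 to 0.99 on the lung arrays. For Gapdh it was 2.18 to 2.94, 1.16 to 2.15 and 0.89 to 1.46, so the M2-like arrays lay above the others. The part of RNA quality in these results was not tested. Classical monocyte markers were lower on the M2-like arrays (4 of 5 called), with sums of 4.75 in spleen and 10.61 in bone marrow against 13.36 to 15.04 in panel SatM and 12.06 to 15.17 on the lung arrays, and their part was not tested.

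**Figure D2:**
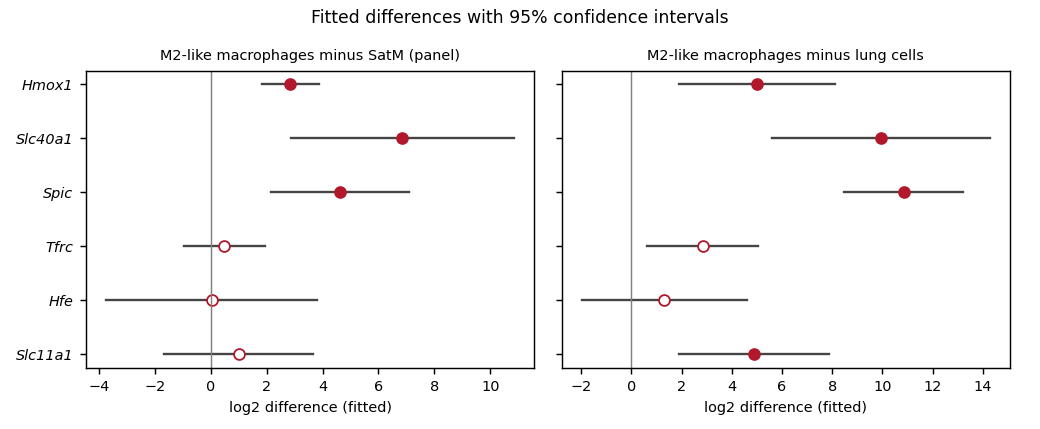
Fitted log2 difference (horizontal axis) of each gene for M2-like macrophages minus panel SatM (left) and minus the 4 lung arrays (right), with 95% confidence intervals as lines and filled points for called genes. Hmox1, Slc40a1 and Spic are filled on both sides, Slc11a1 on the lung side alone, and the Hfe intervals span 0.

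Against the 4 lung arrays as 1 class, Spic, Slc40a1, Hmox1 and Slc11a1 were higher in M2-like macrophages. These are 4 of the 6 genes, where 5.17% of 11734 genes were called higher, 7.73% lower and 12.9% in either direction. Both comparisons use the same M2-like arrays and the SatM array of the lung, so they are not independent. The median difference was 4.95 over the 6 genes and -0.10 over all genes.

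Spic was at least 1840-fold higher, since all 4 lung arrays lay at the floor (difference 10.84 ± 1.08, adjusted p = 0.000117 in limma). This call held when each array was left out in turn. Slc40a1 was higher by 9.93 ± 1.97 (adjusted p = 0.0084), and the closest lung array was MP_BAL at 8.31. Without the spleen M2-like array its adjusted p was 0.0759.

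Hmox1 was higher by 5.01 ± 1.41 (adjusted p = 0.0381) and Slc11a1 by 4.89 ± 1.35 (adjusted p = 0.0353). The lung arrays are not alike for Hmox1: both macrophage sorts were above 11, SatM was at 8.88 and the Msr1dull Ceacam1dull cells at 5.81. That last array had a dendritic cell sum of 13.41, with 0 of 6 markers at the floor, against 5.33 to 7.48 on the other lung arrays. Without it the Hmox1 difference was 3.81 (limma adjusted p = 0.0251) and that of Slc11a1 3.79 (0.028), and the part of dendritic cells was not tested. The lung macrophage sorts, MP_BAL and F480 posi_BAL, differed in alveolar macrophage markers, as given above, and the part of this was not tested. Set against these sorts as a class of their own, the difference was 2.93 for Hmox1 (limma adjusted p = 0.105) and 3.52 for Slc11a1 (0.127), and neither was called. Both calls were also lost without the spleen M2-like array (adjusted p = 0.201 and 0.239), without the bone marrow one (0.122 and 0.0857) or without SatM of the lung (0.0825 and 0.0621), and Slc11a1 without MP_BAL (0.0668).

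In a model with cell type and tissue terms, none of the 6 genes was called against lung macrophages by limma (1 had an unadjusted p under 0.05), with Spic at 6.07 (adjusted p = 0.127), Slc40a1 at 3.07 (0.619), Slc11a1 at 0.99 (0.837) and Hmox1 at 0.59 (0.72). The difference from the lung arrays was 2.84 for Tfrc (95% interval 0.62 to 5.06, adjusted p = 0.0846) and 1.31 for Hfe (-1.97 to 4.59, 0.62), and neither was called. The lung arrays had summed lung epithelium markers of 9.23 to 13.58, against 5.38 and 6.86 on the M2-like arrays. This list also summed to 13.32 to 13.50 in SMP and 13.14 and 13.15 in basophils, so it does not mark epithelium alone. B cell sums were 5.10 to 6.99 on the lung arrays against 11.75 and 11.50 on the M2-like arrays. The part of epithelial and B cell transcripts was not tested.

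The wider pathway was read from 7 lists of 76 genes, of which 70 were measured. Without the 6 genes above, 58 were tested against panel SatM, and 8 rose and 3 fell in M2-like macrophages, with a median difference of 0.46. Over all genes tested, 5.39% were higher and 2.92% lower, with a median of 0.03. Of 9 heme breakdown and transport genes, 4 rose, including Hmox1, and none fell. Biliverdin reductase A (Blvra), which turns the product of heme oxygenase into bilirubin, was at 10.52 and 11.50 in M2-like macrophages of spleen and bone marrow, against 7.83, 7.73, 8.30 and 9.77 in SatM of spleen, bone marrow, blood and lung. Its fitted difference was 3.21 (adjusted p = 0.000737). Blvrb, the second biliverdin reductase, differed by 3.46 (0.00987) and Slc48a1, which carries heme out of the phagolysosome, by 3.47 (0.0159).

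Of 12 tested uptake genes, 2 rose and 1 fell. Cd163, the receptor for hemoglobin bound to haptoglobin, was at 13.39 and 14.16 in M2-like macrophages and between 2.30 and 5.95 in SatM (difference 9.36, adjusted p = 0.000993). Cd163 is also a member of the red pulp and marrow macrophage list that was set against the labels above. The zinc and iron transporter Slc39a8 differed by 4.38 (0.00074). Lcn2, which binds iron-loaded siderophores and is stored in neutrophil granules, fell by 6.33 on the log2 scale (0.0368). Lcn2 read 2.77 in spleen and 8.90 in bone marrow M2-like macrophages, against 11.70, 14.18, 6.27 and 2.77 in SatM of spleen, bone marrow, blood and lung, so the ranges overlapped. The neutrophil sums, of which Lcn2 is itself a member, were 7.68 and 13.92 in M2-like macrophages and 15.41, 17.10, 9.81 and 9.61 in those SatM arrays, and the part of neutrophil transcripts was not tested.

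In heme synthesis 2 of 8 genes rose. Alas2, the erythroid form of the first enzyme, read 5.90 in spleen and 9.40 in bone marrow M2-like macrophages, and 6.22 in bone marrow SatM, with the other SatM arrays at the floor (difference 3.27, adjusted p = 0.000601). The erythroid sums of bone marrow M2-like macrophages and SatM were 12.45 and 9.98, and Alas2 is itself a member of that list. Ppox, a later enzyme of the path, read 9.21 and 9.32 against 6.49 to 7.99 (0.0159). Ferritin heavy chain (Fth1), which stores iron, lay between 13.26 and 14.49 on the M2-like and panel SatM arrays outside the lung and was not called.

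Among 12 tested regulators, Spic and Aco1 rose and 2 fell. Aco1, an iron-sensing RNA-binding protein (IRP1), differed by 2.23 (adjusted p = 0.0137). Bach1, the heme-sensitive repressor of Hmox1, read 10.56 and 11.09 in M2-like macrophages and 12.53 to 13.02 in SatM, and fell by 2.06 on the log2 scale (0.0288). Nfe2l2 read 8.25 and 8.57 against 9.92 to 10.66 and fell by 1.80 (0.0096). In limma 0 of the 9 tested oxidative stress response genes and 0 of the 7 tested mitochondrial iron genes were called (3 and 1 at an unadjusted p under 0.05). Hepcidin (Hamp), the hormone that closes ferroportin, was at the floor on both M2-like arrays.

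Against the lung arrays, 8 of the 58 rose and 4 fell, with a median of 0.15. Over all genes tested, 5.17% were higher and 7.73% lower, with a median of -0.10, so the share that fell was near that of all genes. Cd163 differed by 11.32 (adjusted p = 2.08e-05), Slc39a8 by 3.29 (0.00856), Slc48a1 by 2.77 (0.036), Ppox by 1.80 (0.00799) and Alas2 by at least 40.9-fold (0.0339), with all 4 lung arrays at the floor. The mitochondrial iron importer Slc25a37 (2.04, 0.0132), the iron-sulfur assembly gene Isca1 (1.47, 0.0237) and Osgin1 (4.08, 0.00856) also rose. Bach1 fell by 1.43 (0.00815), as did Nfe2l2 (8.25 and 8.57 against 9.06 to 10.46, 0.0166), the iron-sensing ubiquitin ligase subunit Fbxl5 by 1.68 (0.0192) and the transporter Slc39a14 by 2.88 (0.0273). Blvra and Blvrb were not called here, and the lung macrophages read 11.31 and 10.64 for Blvra.

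**Figure D3:**
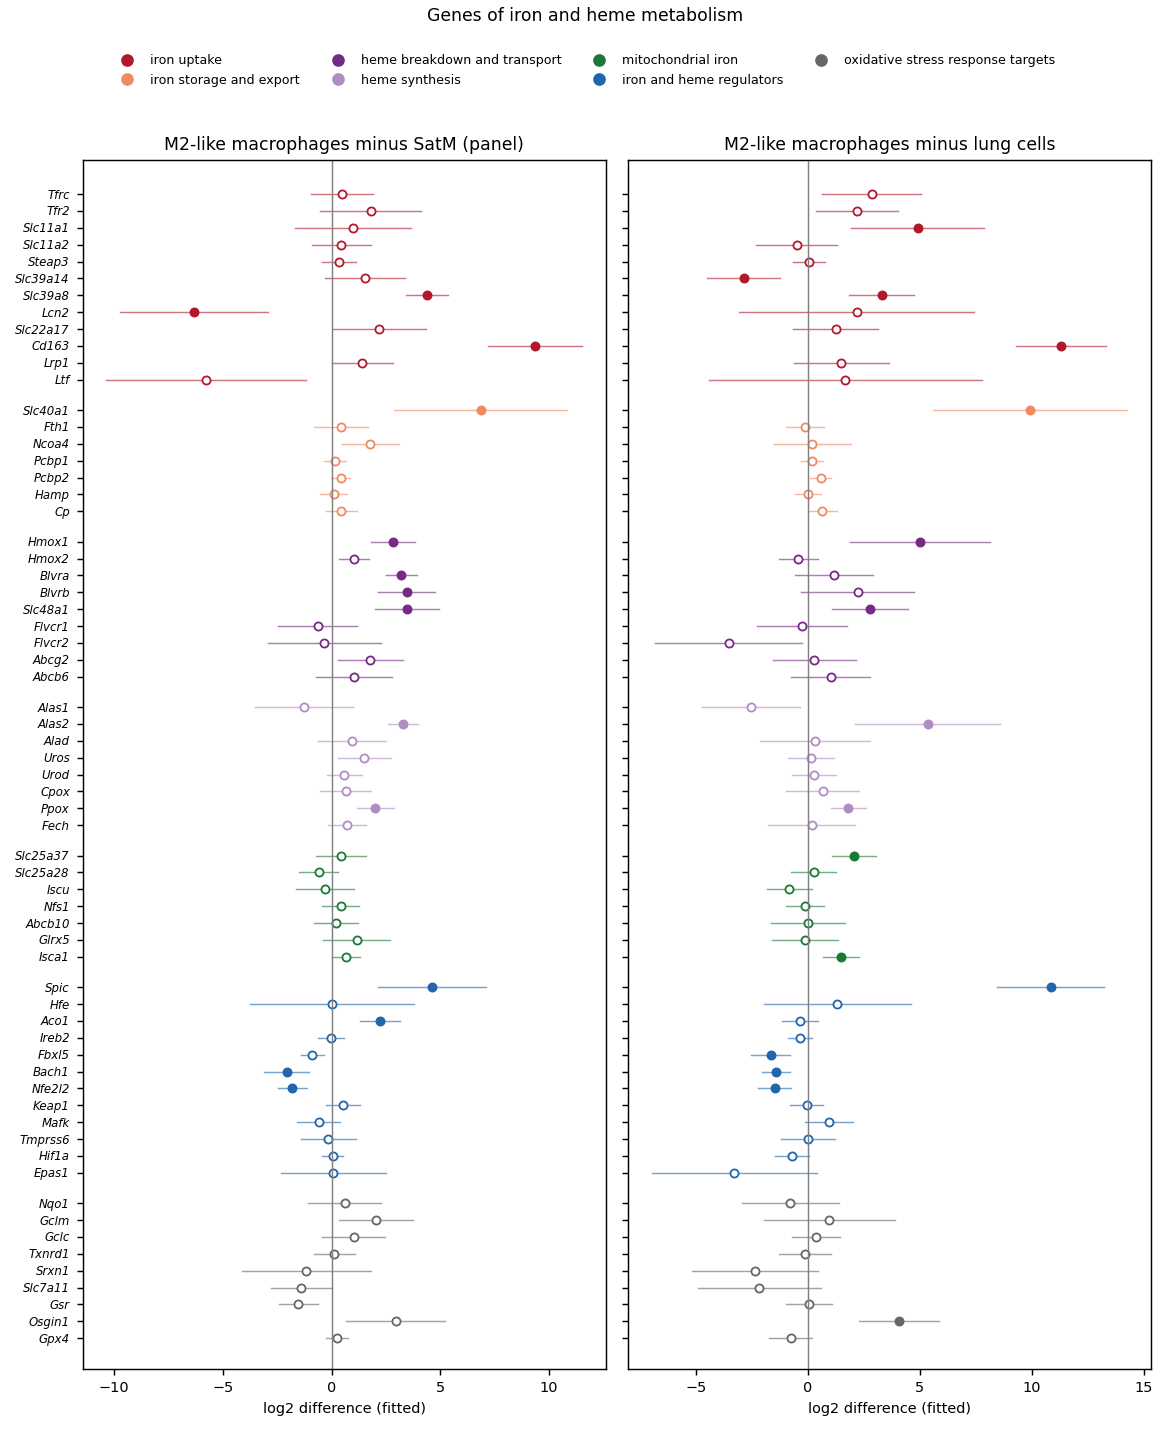
Fitted log2 differences (horizontal axis) of the tested genes of the 7 iron and heme lists, M2-like macrophages minus panel SatM (left) and minus the 4 lung arrays (right), with 95% confidence intervals as lines and filled points for called genes. Cd163 lies farthest to the right among the genes outside the 6, and Bach1 and Nfe2l2 are filled to the left of 0 on both sides.

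In the bone marrow, SatM were compared with inflammatory monocytes in a model of the 20 other arrays with a term for the WT-titled set. Spic and Slc40a1 were higher in SatM, 2 of the 6 genes, where 2.87% of 12077 genes were called higher, 6.47% lower and 9.34% in either direction. Spic read 7.49 and 6.96 in SatM against 2.59 and 3.87 (difference 3.99 ± 0.64, adjusted p = 0.00143). Slc40a1 differed by 1.92 ± 0.48 (adjusted p = 0.0217), with 6.24 and 6.32 against 4.32 and 4.39. This Slc40a1 call was lost when any of the 4 arrays was left out (limma adjusted p = 0.077, 0.0996, 0.125 and 0.111 without SatM 1, SatM 2, inflammatory monocyte 1 and inflammatory monocyte 2), and the second probe set was at the floor on all 4 arrays, which gives no information. Hmox1 (1.26, limma adjusted p = 0.167), Hfe (2.26, 0.238), Slc11a1 (1.03, 0.626) and Tfrc (0.62, 0.662) were not called. For each of these 4 genes both SatM arrays were above both inflammatory monocyte arrays. The model takes its spread from the whole 20-array set. For Hfe the SD was 0.13 in SatM and 0.03 in inflammatory monocytes, but 2.51 in SMP and 2.32 in cMoP (WT-titled arrays included). A second Hfe probe set read 2.17 and was called (limma adjusted p = 0.0107). Neutrophil sums were 14.88 and 15.54 in SatM and 13.75 and 12.71 in inflammatory monocytes. Eosinophil sums were 13.19 and 11.76 in SatM against 5.31 and 5.24 (4 of 7 markers higher), and eosinophils themselves had Slc40a1 at 11.40 and 10.91. Classical monocyte sums were 11.99 and 12.38 in SatM against 15.58 and 15.72 (4 of 5 lower). The part of these transcripts was not tested. Among the 57 other tested list genes, lactoferrin (Ltf) rose by 4.42 and Glrx5 and Gpx4 fell by 2.16 and 1.10.

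Between the progenitors, Slc40a1 was higher in SMP than in cMoP, while Tfrc, Hmox1 and Slc11a1 were lower. These are 1 gene higher and 3 lower of 6, where 12.8% of genes tested passed upward and 22.7% downward (35.5% in all), so a call is common here. Slc40a1 was at 7.24, 8.35, 6.19 and 6.64 in SMP and 3.41, 3.60, 3.60 and 2.96 in cMoP, with no overlap (difference 3.71 ± 0.34, adjusted p = 2e-06). Its second probe set was at the floor on all of these arrays, which gives no information. Tfrc was lower in SMP by 2.33 ± 0.42 (adjusted p = 0.000574), at 8.90, 8.06, 10.44 and 8.43 against 11.29, 10.81, 11.97 and 11.06.

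The ranges overlapped for Hmox1 (fell by 1.06, adjusted p = 0.0332) and Slc11a1 (fell by 1.82, 0.0359). The Hmox1 call was lost without SMP WT 1 (limma adjusted p = 0.0934), SMP WT 2 (0.0731), cMoP 2 (0.064) or cMoP WT 2 (0.117). That of Slc11a1 was lost without SMP 1 (0.116), SMP 2 (0.0788), cMoP 1 (0.0985) or cMoP 2 (0.129). For Slc11a1 the WT-titled arrays gave a difference of -0.02 and the others -3.62, with an interaction of 3.60 (adjusted p = 0.0542). SMP carried the basophil and mast cell markers given above, and basophils themselves had Slc40a1 at 9.78 and 8.67 and Hmox1 at 7.77 and 6.08. Eosinophil sums were 11.81 to 13.08 in SMP and 5.17 to 6.14 in cMoP, neutrophil sums 12.21 to 14.79 and 9.95 to 11.03, and classical monocyte sums 11.15 to 11.85 and 13.76 to 14.57. Cell cycle sums were 13.75 to 14.17 in SMP and 14.62 to 14.90 in cMoP. Of the 11 cell cycle genes, 8 were called lower in SMP, where 22.7% of all genes tested were. The part of the transcripts of these cells and of the cell cycle was not tested. Of the other 57 list genes, 10 rose and 11 fell. The second transferrin receptor, Tfr2, was at the floor on all cMoP arrays. In SMP it ran from 2.32, also at the floor, to 9.32, at least 26.3-fold higher on average (limma adjusted p = 0.00158). Cd163 was at the floor on all SMP arrays and at least 21.4-fold lower (6.4e-05), and the scavenger receptor Lrp1 and the heme exporters Abcg2 and Flvcr1 fell by 4.35, 3.70 and 2.77. Of 8 tested heme breakdown and transport genes 4 fell, and of 9 oxidative stress response genes 4 rose (Gclc, Nqo1, Srxn1 and Osgin1) and Txnrd1 fell.

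From SMP to SatM, Hmox1, Spic, Hfe and Slc11a1 were higher and Tfrc lower, 5 of 6 genes, where 12.8% of genes tested passed upward, 14.0% downward and 26.8% in all. The fitted differences were 5.05 ± 0.49 for Hmox1 (adjusted p = 5.32e-06), 4.81 ± 0.60 for Spic (4.72e-05), 6.45 ± 1.02 for Hfe (0.000325) and 7.62 ± 0.86 for Slc11a1 (1.85e-05). These 4 calls held when each array was left out in turn. Tfrc fell by 1.75 ± 0.55 (adjusted p = 0.0289), but another probe set read 1.55, the opposite direction, and was not called. The remaining Tfrc probe set had a fitted difference of 0.31, also not called. It was at the floor on both SatM arrays and read 2.30, 2.30, 2.31 and 3.53 in SMP, so its sign gives no information. Slc40a1 was lower by 1.23 ± 0.45 and just missed the call (adjusted p = 0.0551). The Tfrc call was lost without SatM 1 (limma adjusted p = 0.0587), SatM 2 (0.183) or SMP 1 (0.0809). The summed basophil markers were 6.44 and 7.39 in SatM against 16.47 to 16.65 in SMP, and the cell cycle sums 10.16 and 9.60 against 13.75 to 14.17. Neutrophil sums were 14.88 and 15.54 in SatM against 12.21 to 14.79 in SMP. Neutrophils themselves had Slc11a1 at 11.72 and 11.60 and Hmox1 at 9.69 and 9.72. The part of the basophil, cell cycle and neutrophil transcripts was not tested.

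From cMoP to inflammatory monocytes, Hmox1 and Slc11a1 were higher and Tfrc lower, 3 of 6 genes, where 6.62% of genes tested passed upward, 8.25% downward and 14.9% in all. Tfrc fell by 4.70 ± 0.55 (adjusted p = 7.27e-05), and all probe sets gave this direction. Hfe was not called (2.30, adjusted p = 0.161), but its second probe set read 3.81 and was (7.94e-05). Hmox1 rose by 2.73 ± 0.49 (0.00185) and Slc11a1 by 4.77 ± 0.86 (0.00184). These 3 calls held when each array was left out in turn. The cell cycle sum was 14.62 to 14.90 in cMoP and 10.49 and 10.64 in inflammatory monocytes, and the neutrophil sum 9.95 to 11.03 and 12.71 to 13.75. Their part was not tested. SatM, inflammatory monocytes and both progenitors are shared between these comparisons.

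Spleen neutrophils had more Slc40a1, Hmox1 and Slc11a1 and less Tfrc than the mean of basophils and eosinophils, 4 of 6 genes, where 17.2% of genes tested passed upward, 23.8% downward and 41.0% in all. The differences were 3.22 ± 0.41 for Slc40a1 (adjusted p = 3.66e-05), 2.32 ± 0.46 for Hmox1 (0.00104) and 5.52 ± 0.79 for Slc11a1 (9.94e-05), and Tfrc fell by 2.87 ± 0.51 (0.000517). Tfr2 was at the floor in neutrophils, at least 180-fold lower. Of 8 tested heme synthesis genes 5 fell and Ppox rose: Cpox fell by 4.95 and Alad by 4.12 (adjusted p = 3.42e-08 and 9.99e-06), both enzymes of the synthesis path, and Alas2 was at the floor in neutrophils. The calls of the 4 genes held when each array was left out in turn. The 3′ minus 5′ difference of Actb was 5.86 and 5.88 in eosinophils, the highest of the 35 arrays, against 2.34 and 2.73 in neutrophils, and its part was not tested. Cell cycle sums were 10.80 and 12.21 in neutrophils against 14.57 to 15.19 in basophils and eosinophils. Erythroid sums were 5.59 and 5.78 against 10.79 to 12.31, and Alas2 is itself a member of that list. The part of cell cycle and erythroid transcripts was not tested.

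**Figure D4:**
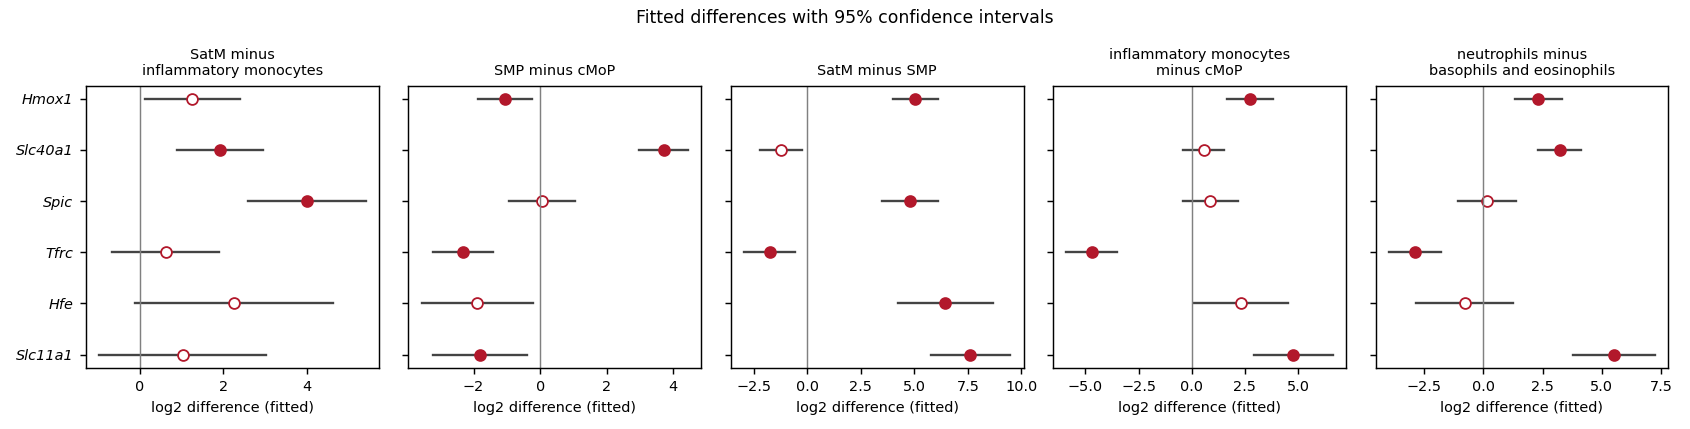
Fitted log2 difference (horizontal axis, with its own scale in each panel) of the 6 genes in 5 comparisons of the 20-array set, with 95% confidence intervals as lines and filled points for called genes. Tfrc is filled left of 0 in 4 of the 5 panels (for SatM minus SMP, another probe set read to the right), and Slc11a1 is filled right of 0 in 3.

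SatM of the bone marrow was measured in both sets, and the 2 sets differed. Panel SatM had Slc40a1 at 10.20 against a mean of 6.28 in the other set, and Tfrc at 11.03 against 6.85. Differences at least as large were seen for 1.41% and 1.21% of all 18193 genes. Dim genes were not filtered out of this share, and a share over expressed genes alone was not computed. Hfe was at 9.38 against 11.85 (3.58% of genes). Hmox1 was close, at 11.50 against 11.62. The panel array had a cell cycle sum of 14.36 against 10.16 and 9.60, and a neutrophil sum of 17.10 against 14.88 and 15.54, whose part was not tested.

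Over the 35 arrays, Hmox1 and Slc11a1 had the most similar pattern among the 6 genes (Pearson r = 0.89), followed by Hmox1 and Spic (0.73). Slc40a1 went with Hmox1 less closely (0.38), and Tfrc ran against Slc11a1 (-0.49). These values describe arrays that share cell types and sets. Among 12869 genes, those most like Slc40a1 were Vcam1 (0.86), the adhesion molecule of marrow and red pulp macrophages, Vamp5, Agap1, Mpzl1 and Clec1b. Spic was most like Tmem26 (0.89), Smagp, Hes1, Eid3 and Fcrl1, of which Tmem26 and Fcrl1 were at the floor on 22 arrays and Eid3 on 29, so these values rest on few arrays. Tfrc was most like Dtl (0.84), Dbf4, Taf2, Lig1 and Mms22l, of which Dtl, Dbf4, Lig1 and Mms22l act in DNA replication and repair. Hmox1 was most like Slc11a1, E230029C05Rik, Adgre1 (0.87), a surface marker of macrophages, Pilra and Ppt2. Slc11a1 was most like 6430548M08Rik (0.92), Pla2g7, Tlr13, Hmox1 and Klra2. Hfe was most like Lacc1 (0.92), Tmem51, Abhd12, Filip1l and Lrp1.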

How the data were processed

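RNA of sorted cells was labelled with biotin and hybridised to 1-colour Affymetrix arrays, per the labels' protocols. The authors deposited a table of log2 values per probe set for 35 arrays; the summarisation and the normalisation are not given in the sources used here. The scale was read from the values, which run from 2.30 to 16.02 with array medians of 2.31 to 2.39, and 48.8% to 51.4% of probe sets lie at the shared minimum. No depth applies to arrays. Slide and scan date are not given in the sources used here.

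Genes were named from GEO's platform annotation, updated through RefSeq for 34741 of the 34945 probe sets with 1 symbol; 932 with several symbols and 9160 with none stayed unnamed. Where a gene had several probe sets, the one of highest average level stood for it. Genes above the array median on at least 2 arrays of a model were tested with limma 3.58.1 in R 4.3.3 (lmFit, eBayes with trend). The panel model had 6 residual degrees of freedom with a tissue term and 9 without it (lung comparison), and the model of the other 20 arrays had 10. A called gene had a Benjamini-Hochberg adjusted p under 0.05 and a log2 difference of at least 1. The fits were tested on simulated data. Replicate numbers did not pair the arrays (same-numbered arrays' deviations correlated at -0.04 to 0.23 over 7 pairs). The named genes were the 6 genes, the called genes of the iron and heme lists (at most 5 per list, of which the text gives a choice) and the 5 genes most like each of the 6. The genes, the lists and the tests were chosen with earlier results of these data known. The alternatives were another normalisation, other filters, other probe sets, other model terms and arrays left out. Marker sums are log2 of the summed linear values of a list's genes. Marker lists of 13 cell types or states were summed, and the text gives the sums it names. List genes that were not measured are not analysed here. Tables and figures were made with Python 3.11.15, numpy 2.4.6, pandas 2.3.3 and matplotlib 3.10.9.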

Additional observations from a re-analysis of the deposited data

Results flagged for a closer look

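Dixon's test was run for each of the 6 genes in the groups of 4 arrays, 24 groups in all, and 2 arrays lay apart from the rest of their group. Chance alone flags about 1 in 20 groups. Hfe in SMP 2 was 7.49, while the other SMP arrays lay between 2.30 and 2.97. A second Hfe probe set read 2.49 on both SMP 1 and SMP 2 and was at the floor on the WT-titled SMP arrays. The 3′ minus 5′ difference of Actb was 2.65 on SMP 2 against 1.07 to 1.46 on the other SMP arrays, and its part was not tested. Spic in SMP 1 was 2.59 against 2.30 to 2.32, a gap near the floor of the arrays.

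For a pair of genes the difference between M2-like macrophages and SatM had opposite signs in spleen and bone marrow. Tfrc differed by -0.0025 in spleen and 0.85 in bone marrow, and Hfe by -0.21 and 0.18. Another probe set of each gene kept 1 sign. For Hfe it read 9.71 in M2-like macrophages against 8.80 in SatM in spleen, and 8.07 against 6.96 in bone marrow. For Tfrc it read 4.75 against 4.72 in spleen and 7.64 against 7.20 in bone marrow. Each tissue has 1 array of each cell type, so the difference between tissues was not tested.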

How the results depend on the processing

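Of 650 alternative values of the 6 genes, 561 kept their direction and side of the threshold, 68 lost the call, 18 gained it and 3 reversed. The reversals were Tfrc in SatM minus SMP, main value -1.75, at 0.0366 with the mean of probe sets and 1.55 and 0.31 with the other probe sets. The probe set at 0.31 was at the floor on both SatM arrays, so its sign gives no information.

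Genes called for M2-like macrophages against SatM fell from 975 to 555 with no filter on dim genes and 579 with no tissue term, and to 0 in limma with the compared groups alone (2831 at an unadjusted p under 0.05). Of the 6 genes, 3 were called in the main fit, 1 with no filter, 1 with no tissue term and 0 with the groups alone (4 at an unadjusted p under 0.05). Against lung, 1514 genes became 770 with the groups alone and 229 with tissue terms, and the 4 called of the 6 became 2 with no filter, 2 with the groups alone, 2 with lung macrophages as their own class and 0 with tissue terms (1 at an unadjusted p under 0.05). With the groups alone, the called of the 6 went from 2 to 5 for SatM against inflammatory monocytes and from 4 to 2 for SMP against cMoP, and 3234 genes became 1686 for SatM against SMP. SMP against cMoP also gave 2 with quantile normalisation and 2 with no filter. The cause was not tested.

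Leaving out each array in turn gave 351 to 1312 genes and 0 to 3 of the 6 for M2-like against SatM, lowest without the spleen M2-like array. It gave 501 to 1855 genes and 1 to 4 of the 6 against lung, 538 to 892 and 1 for SatM against inflammatory monocytes, 3941 to 4389 and 2 to 5 for SMP against cMoP, 2603 to 3457 and 4 to 6 for SatM against SMP, 1003 to 1833 and 3 for inflammatory monocytes against cMoP, and 3719 to 4912 and 4 for neutrophils against the other granulocytes. The fit with the replicate number as a block called 1035, 4378, 3441, 1622 and 4906 genes in the last 5 of these, against 1128, 4285, 3234, 1795 and 4954, and it also called Hfe in SMP against cMoP and Slc40a1 in SatM against SMP. Leaving out SatM of the marrow and lung together was chosen after seeing the data. Levels near the floor bound a difference from below, and no detection calls were used.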
